A study of Mus musculus with 6 samples.

Results

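In the 6 palate libraries, 14 guidance genes of the semaphorin, Slit, netrin and ephrin-A systems differed between the regions, and 13 of them were higher in the posterior palate. These were 14 of 46 genes tested, against 7.46% of all genes, and when 1 library was left out the count ran from 5 to 33 while 3.23% to 46.4% of all genes were called. Netrin 1 (Ntn1), its receptor Dcc, the Slit receptors Robo1 and Robo2, the semaphorins Sema3a, Sema3c and Sema5b and the ephrin receptor Epha3 were among those that rose toward the posterior palate. The ligand Efna5 was the exception, and fell toward it. The genes were chosen by name, as 48 ligands, receptors and an intracellular partner from these 4 systems, and each symbol matched exactly 1 of the 56691 Ensembl genes with counts. They comprise 21 genes of the semaphorin system, 7 of the Slit system, 9 of the netrin system and 11 of the ephrin-A system.

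The libraries are bulk RNA-seq of palatal shelves of C57BL/6J mouse embryos at embryonic day 14.0, with no mutation or treatment named in the labels. The 3 dissections of one group came from the anterior and the 3 of the other from the posterior end of the shelves, and whether each is 1 animal or a pool is not given in the labels. P-values measure the spread between these samples. Reads counted on the strand of the gene added up to between 11378736 and 15172733 per library. Levels are given as CPM (counts scaled to a common library total) after TMM normalization, in the order of replicates 1, 2 and 3. A log2 fold change is posterior over anterior, with its standard error (SE), and adjusted p-values are those of edgeR's quasi-likelihood test with the Benjamini-Hochberg adjustment over the 15673 genes that reached 10 counts in 3 or more libraries. A gene is called below 0.05.

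Guidance genes encode signals and receptors that steer growing axons and migrating cells. Secreted class 3 semaphorins bind neuropilins, which pass the signal on through plexins, and transmembrane semaphorins of classes 5 and 6 bind plexins directly. Slits are large secreted proteins read by Robo receptors, mostly as a repellent. Netrins attract through Dcc and its relative neogenin (Neo1) and repel through Unc5 receptors. Ephrin-As are held on the membrane by a lipid anchor and act at cell contacts on EphA receptor tyrosine kinases. The same systems act in blood vessels, neural crest and muscle, so the cells that carry a change are not known from bulk tissue. Fewer cells of a type and less RNA per cell cannot be told apart in such samples.

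Posterior replicates 2 and 3 stood apart from the other 4 libraries. Their shares of multimapping reads were 6.12% and 5.94%, and those of the other libraries 8.45% to 8.77%. Their shares of mitochondrial counts were 0.973% and 1.14%, and those of the others 2.70% to 2.97%. Both are posterior, so the region and this difference cannot be told apart within them. Results that rest on them are therefore also given from a fit with a term for these 2 groups of libraries, which takes the regional difference from posterior replicate 1 against the anterior libraries. The value from that fit is called the value with the library-group term. It has 1 library in its posterior arm, whose spread is assumed to be that of the other libraries, so it shows where posterior replicate 1 lay and is given with no call for a region. In the opposite fit, without posterior replicate 1, 46.4% of all genes tested were called, and each call from that fit given here stands against this share.

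Among the genes called, with Dcc left aside and not looked at, 3 had a single start in RefSeq that is also the start of the gene in GENCODE M21. Their upstream bases are shown here, and they include both directions of change and a ligand with a receptor that is known to bind it. Each sequence is the 250 bases before the start, read on the strand of the gene from the RefSeq table for GRCm38.p6. Capitals mark the GC box GGGCGG on either strand, the short motif bound by Sp1-type factors.
Efna5 (chr17:62881318-62881567, minus strand): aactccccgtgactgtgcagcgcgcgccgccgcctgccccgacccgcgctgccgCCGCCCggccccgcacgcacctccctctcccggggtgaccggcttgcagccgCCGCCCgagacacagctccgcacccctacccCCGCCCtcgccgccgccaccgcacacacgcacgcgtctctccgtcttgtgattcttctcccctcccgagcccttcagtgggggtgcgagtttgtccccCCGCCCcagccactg
Epha3 (chr16:63864176-63864425, minus strand): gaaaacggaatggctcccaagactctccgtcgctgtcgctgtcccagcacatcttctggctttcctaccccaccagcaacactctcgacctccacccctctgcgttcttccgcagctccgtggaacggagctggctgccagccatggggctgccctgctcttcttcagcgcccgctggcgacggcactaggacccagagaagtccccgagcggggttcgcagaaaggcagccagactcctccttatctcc
Unc5a (chr13:54949161-54949410, plus strand): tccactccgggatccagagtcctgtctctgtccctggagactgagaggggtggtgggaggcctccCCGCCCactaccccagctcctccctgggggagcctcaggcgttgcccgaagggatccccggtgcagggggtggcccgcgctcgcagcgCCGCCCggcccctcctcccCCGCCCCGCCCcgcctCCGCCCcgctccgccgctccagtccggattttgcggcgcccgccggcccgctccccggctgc
The windows of Efna5 and Unc5a hold 4 and 5 GC boxes, 2 of the latter overlapping, and 32 and 25 CpG dinucleotides. That of Epha3 holds 16 CpG dinucleotides and no match to these letters. The table lists 46 windows for 39 of the 48 genes. A GC box lies in 35 of these windows, or 76.1%, against 32.7% of all 32851 windows of that length. The table has 14 windows for 11 of the genes called, and a GC box lies in 6 of these windows. The letters TAATTA, the core that many homeodomain factors bind, lie in 3 windows of the 48 genes and in 4.84% of all windows, and in none of those of the genes called. The median window of the guidance genes had 18 CpG dinucleotides, against 6 over all windows.

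Of the 48 genes, 46 passed the filter on low counts and 14 were called, or 30.4%, against 7.46% of all genes tested. Toward the posterior palate 13 were called, against 4.87% of all genes. Toward the anterior palate 1 was called, against 2.59% of all genes. The median log2 fold change over the 46 genes was 0.46 and that over all genes tested was close to 0, and 34 of the 46 were positive. The regions did not overlap in 21 of the 46 genes, with all posterior libraries above in 19 and below in 2, whereas they did not overlap in 28.0% of all genes tested. By system, 5 of 21 semaphorin system genes, 2 of 5 tested in the Slit system, 5 of 9 in the netrin system and 2 of 11 in the ephrin-A system were called.

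**Figure D1:**
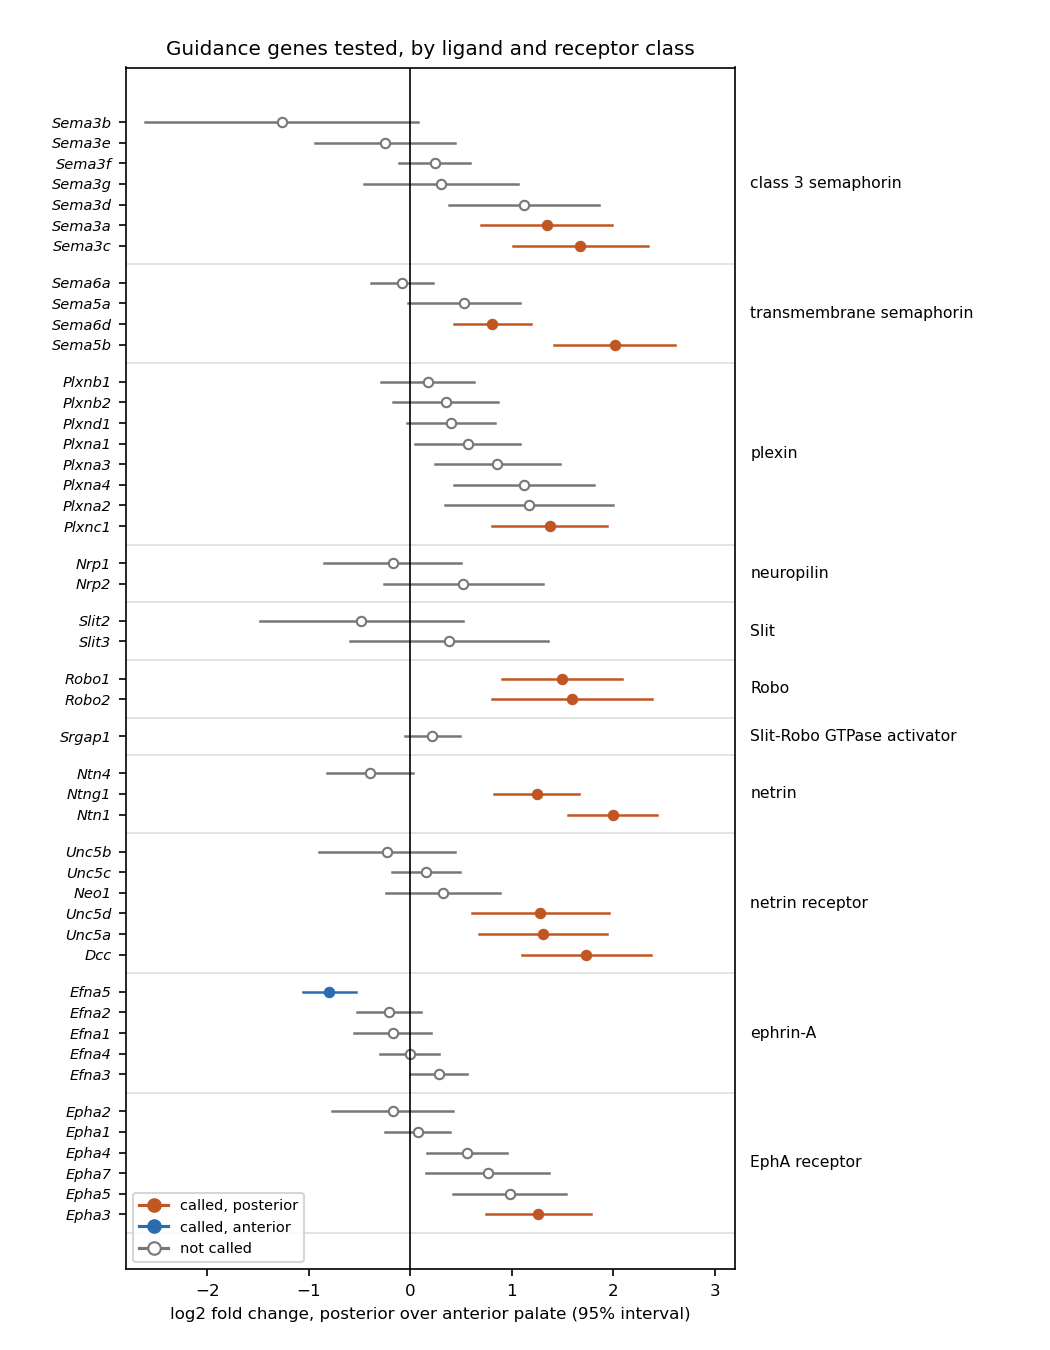
Log2 fold change of the 46 guidance genes tested (horizontal axis, posterior over anterior palate) with its 95% interval, grouped by ligand and receptor class. Filled points are genes called at an adjusted p below 0.05, 13 of them to the right of 0 and 1, Efna5, to the left. Open points were not called.

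The genes are long. The median longest coding transcript of the 46 genes had 6386 bases, against 3054 over all genes tested. A correction of each library for its trend with transcript length lowered their median log2 fold change from 0.46 to 0.18, and that over all genes stayed close to 0. With this correction the same 14 genes were called, while 9.09% of all genes were.

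Among the class 3 semaphorins, Sema3a and Sema3c rose toward the posterior palate. Sema3a, a repellent for sensory and motor axons (ENSMUSG00000028883.20, chr5:13125414-13602565 of GRCm38, plus strand), had 102, 117 and 97.6 CPM in the anterior libraries and 154, 306 and 346 CPM in the posterior ones. All posterior libraries lay above the anterior ones, with replicate 1 nearest to them (log2 fold change 1.34, SE 0.28, adjusted p = 0.0277). With the library-group term, that is from replicate 1 alone, the log2 fold change was 0.54. Sema3c, known for its part in neural crest migration to the outflow tract of the heart (ENSMUSG00000028780.14, chr5:17574281-17730268, plus strand), had 31.4, 21.8 and 20.5 CPM in the anterior and 48.7, 87.1 and 99.8 CPM in the posterior libraries. The regions did not overlap (log2 fold change 1.68, SE 0.29, adjusted p = 0.0132), and with the term the value was 0.98.

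Sema3d, another secreted ligand, resembled Sema3a in its levels but was not called. It had 108, 99.5 and 97.0 CPM in the anterior libraries and 111, 257 and 292 CPM in the posterior ones (log2 fold change 1.12, SE 0.32, adjusted p = 0.0820). Posterior replicate 1 was barely above the anterior range, and the value with the term was 0.13. DESeq2 called it, with an adjusted p = 0.00384, and so did edgeR without posterior replicate 1 (log2 fold change 1.44). Sema3b had 23.9, 16.7 and 17.4 CPM in the anterior and 2.91, 4.33 and 16.8 CPM in the posterior libraries, so that posterior replicates 1 and 2 lay far below the anterior range and replicate 3 inside it (log2 fold change -1.27, SE 0.58, adjusted p = 0.220). Without posterior replicate 3 its log2 fold change was -2.41 and it was called (adjusted p = 0.00694).

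Per length of transcript, Sema3f had the highest mean over all libraries of the semaphorin ligands, at 35.2 CPM per kb. It was ahead of Sema3a in the anterior palate, at 32.3 against 17.8 CPM per kb, and behind it in the posterior palate, at 38.1 against 45.3 CPM per kb. The levels of Sema3f were 101, 101 and 127 CPM in the anterior and 118, 116 and 154 CPM in the posterior libraries, which overlap (log2 fold change 0.24, SE 0.15, adjusted p = 0.343). Sema3e and Sema3g were not called, with log2 fold changes of -0.25 and 0.30. The value of Sema3g rested on single libraries, being 0.62 and called without posterior replicate 1 (adjusted p = 0.0123), 0.064 without replicate 2 and -0.64 with the term. Sema3e lay at 38.8, 28.2 and 32.0 CPM in the anterior and 15.8, 28.8 and 38.5 CPM in the posterior libraries, and its value with the term was -1.06.

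Of the transmembrane semaphorins, Sema5b and Sema6d rose. Sema5b (ENSMUSG00000052133.17, chr16:35541145-35664732, plus strand) had the largest log2 fold change of the 46 genes. It had 4.85, 6.02 and 6.73 CPM in the anterior and 15.8, 26.9 and 28.3 CPM in the posterior libraries (log2 fold change 2.01, SE 0.25, adjusted p = 0.00389). The regions did not overlap, and the value with the term was 1.43. Sema6d, a ligand and receptor in heart and axon development, had 42.6, 48.8 and 49.4 CPM in the anterior and 65.3, 81.1 and 100.2 CPM in the posterior libraries (log2 fold change 0.81, SE 0.16, adjusted p = 0.0250). The regions did not overlap, and with the term its value was 0.48. Sema5a had 194, 214 and 209.7 CPM and 190.4, 307 and 395 CPM (log2 fold change 0.53, SE 0.24, adjusted p = 0.212), with posterior replicate 1 just below the anterior range and the others above it. It was called without posterior replicate 1 (log2 fold change 0.78), and its value with the term was -0.11. Sema6a did not pass the test, with a log2 fold change of -0.079 and a 95% interval from -0.38 to 0.23.

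Plexins are the signalling receptors for these ligands, and 1 of the 8 was called, Plxnc1, a count too small to set apart from the 7.46% of all genes. Plxnc1, a receptor for the membrane-anchored Sema7a (ENSMUSG00000074785.6, chr10:94790866-94944835, minus strand), had 14.8, 15.2 and 12.1 CPM in the anterior and 23.6, 41.7 and 44.1 CPM in the posterior libraries (log2 fold change 1.37, SE 0.24, adjusted p = 0.0153). The regions did not overlap, and the value with the term was 0.74. Its ligand Sema7a had 6.36, 7.76 and 24.3 CPM and 7.47, 9.16 and 10.3 CPM and was not called (log2 fold change -0.51, SE 0.48, adjusted p = 0.526). Anterior replicate 3 was far above the other 5 libraries, and without it the log2 fold change was 0.34 and not called.

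The 4 class A plexins, the usual partners of neuropilins, had positive log2 fold changes of 0.57 to 1.17 and none was called. Plxna1 had 152, 146 and 152 CPM in the anterior and 143, 249.7 and 274 CPM in the posterior libraries (log2 fold change 0.57, SE 0.22, adjusted p = 0.168). Plxna2 had 24.3, 20.2 and 21.9 CPM and 22.9, 60.8 and 65.8 CPM (log2 fold change 1.17, SE 0.36, adjusted p = 0.0975). In both, posterior replicate 1 lay within or just below the anterior range while replicates 2 and 3 were well above it. Plxna3 had 35.9, 35.8 and 33.9 CPM and 37.4, 71.2 and 82.9 CPM (log2 fold change 0.86, SE 0.26, adjusted p = 0.101). Plxna4 had 12.4, 14.7 and 13.5 CPM and 16.8, 41.0 and 30.4 CPM (log2 fold change 1.12, SE 0.30, adjusted p = 0.0667). For these, posterior replicate 1 was slightly above all anterior libraries. DESeq2 called Plxna2, Plxna3 and Plxna4, and with the library-group term the log2 fold changes of Plxna1 to Plxna4 were -0.071, 0.051, 0.085 and 0.31. Without posterior replicate 1 they were 0.81, 1.52, 1.13 and 1.40, all called in a fit that called 46.4% of all genes. With the correction for transcript length they were 0.15, 0.62, 0.54 and 0.53, none called.

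Plxnb2, a receptor for class 4 semaphorins, was the most abundant receptor of the system at 65.9 CPM per kb. It had 378, 369 and 383 CPM in the anterior and 319, 491 and 629.5 CPM in the posterior libraries (log2 fold change 0.35, SE 0.22, adjusted p = 0.352). Posterior replicate 1 was the lowest of all 6 libraries and replicates 2 and 3 were the highest. Plxnb1 and Plxnd1, the latter an endothelial receptor for Sema3e, had log2 fold changes of 0.17 and 0.40 and were not called. Without posterior replicate 1, Plxnb1, Plxnb2 and Plxnd1 had values of 0.38, 0.58 and 0.60, all called. With the length correction the values were -0.21, 0.069 and 0.10, none called.

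The neuropilins, which bind class 3 semaphorins and also vascular endothelial growth factor, were not called. Nrp2 had 276, 228 and 200.3 CPM in the anterior and 166, 397 and 448 CPM in the posterior libraries (log2 fold change 0.52, SE 0.34, adjusted p = 0.358). Nrp1 had 77.9, 88.4 and 85.8 CPM in the anterior and 39.9, 95.2 and 88.5 CPM in the posterior libraries (log2 fold change -0.17, SE 0.29, adjusted p = 0.721). Posterior replicate 1 was the lowest library for both, and replicates 2 and 3 were above the anterior range, for Nrp1 only slightly. With the term Nrp1 had a log2 fold change of -1.07, while without posterior replicate 1 it was 0.13 and not called. Without that library Nrp2 was called toward the posterior palate (log2 fold change 0.85, adjusted p = 0.00111), and with the term its value was -0.50.

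**Figure D2:**
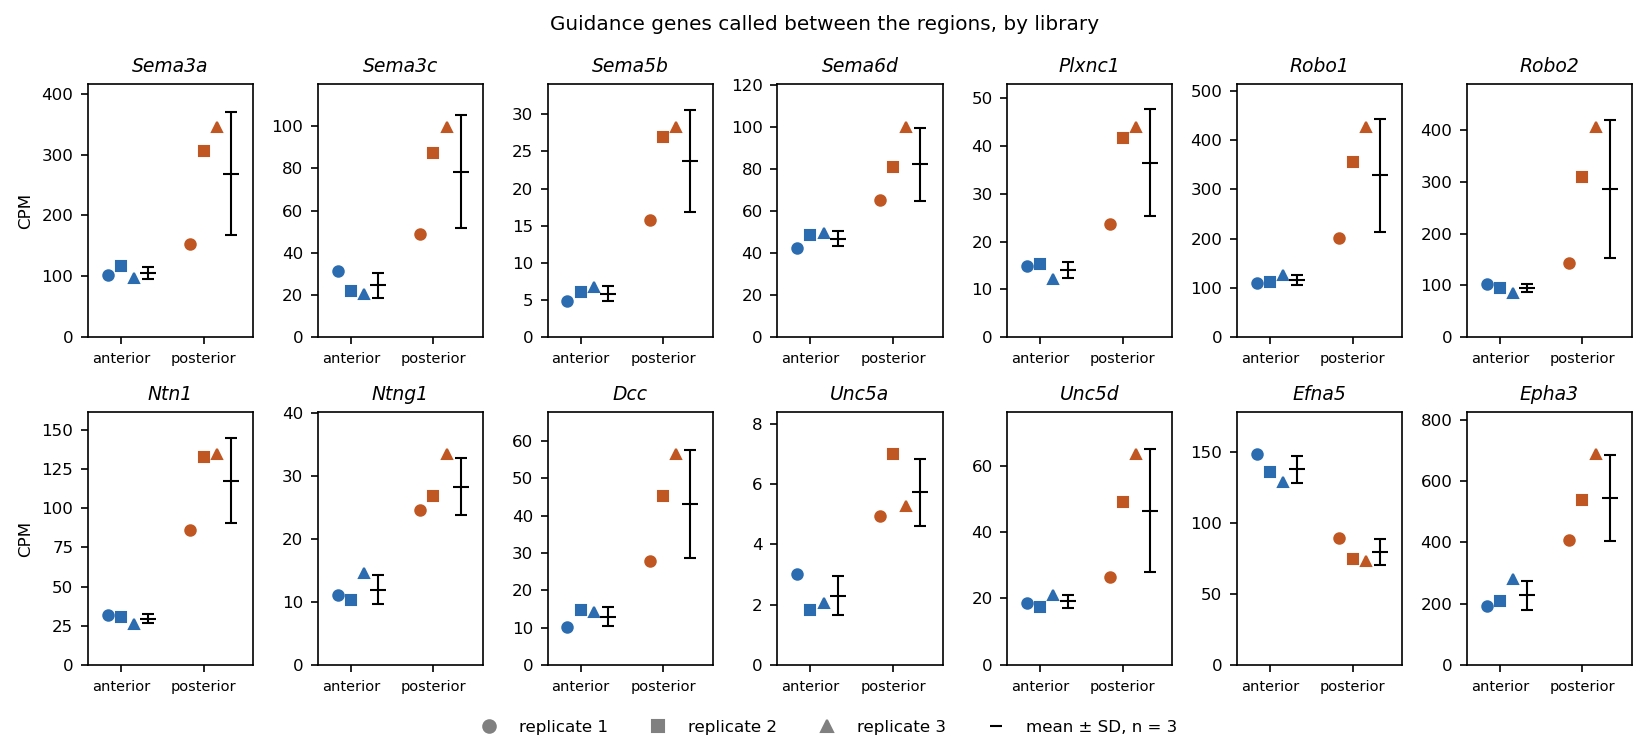
CPM (vertical axes, each from 0) of the 14 guidance genes called, in each of the 3 anterior and 3 posterior libraries, with mean and SD beside them. In each panel the regions do not overlap, and in the 13 genes higher in the posterior palate replicate 1 is the lowest posterior library.

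In the Slit system the receptors Robo1 and Robo2 rose, and of the ligands Slit2 and Slit3, which could be tested, neither was called. Robo1 (ENSMUSG00000022883.12, chr16:72308306-73046095, plus strand) had 110.2, 112 and 127 CPM in the anterior and 202, 355 and 428 CPM in the posterior libraries (log2 fold change 1.50, SE 0.25, adjusted p = 0.0128). Robo2 (ENSMUSG00000052516.20, chr16:73891839-74411825, minus strand) had 103, 95.5 and 86.3 CPM in the anterior and 143, 310.0 and 407 CPM in the posterior libraries (log2 fold change 1.59, SE 0.34, adjusted p = 0.0311). In both genes the 3 posterior libraries were above every anterior one. With the term the value of Robo1 was 0.80 and that of Robo2 was 0.59. Robo1 was the most abundant receptor of the system, at 29.4 CPM per kb against 22.2 CPM per kb for Robo2.

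Robo3, which binds Slits poorly in mammals, had counts of 13, 17 and 6 in the anterior and 2, 3 and 5 in the posterior libraries and was below the filter. Slit1 had counts of 2, 1 and 1 and of 0, 18 and 8, and was not tested either. Its count of 0 in posterior replicate 1 allows up to 0.224 CPM, and such limits cover counting error only.

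The ligands Slit2 and Slit3 set posterior replicate 1 apart from the others. Slit2 had 88.6, 98.7 and 90.1 CPM in the anterior libraries and 23.5, 98.8 and 76.4 CPM in the posterior ones (log2 fold change -0.48, SE 0.43, adjusted p = 0.498). Slit3, the most abundant Slit at 11.7 CPM per kb, had 52.1, 48.1 and 58.9 CPM and 25.5, 89.6 and 91.6 CPM (log2 fold change 0.38, SE 0.42, adjusted p = 0.581). Posterior replicate 1 was thus far below the anterior range in both. For Slit2, replicate 2 was at the top of that range and replicate 3 below it, and for Slit3 both were above it. With the term, which leaves replicate 1 alone, their values were -1.97 and -1.06. Without posterior replicate 1, Slit3 was called toward the posterior palate (log2 fold change 0.78) and Slit2 had a value of -0.074. The paper lists Slit2 as a marker of anterior palatal mesenchymal cells in its single-cell data, which were not analysed here. Srgap1, a GTPase activator that binds Robo, had a log2 fold change of 0.22 and was not called.

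The netrin system had the highest share of calls. Ntn1, the secreted netrin of the floor plate and of many epithelia (ENSMUSG00000020902.13, chr11:68209364-68400823, minus strand), had 31.7, 30.5 and 26.2 CPM in the anterior and 86.0, 132 and 134 CPM in the posterior libraries. The anterior mean was 29.5 ± 2.87 CPM (SD, n = 3), and that of the posterior libraries was 118 ± 27.3 CPM (SD, n = 3) (log2 fold change 1.99, SE 0.19, adjusted p = 0.00109). Its adjusted p was the smallest of the 46 genes, the regions did not overlap, and the value with the term was 1.54. Ntng1, a membrane-anchored netrin that does not bind Dcc (ENSMUSG00000059857.16, chr3:109780040-110144011, minus strand), had 11.1, 10.3 and 14.6 CPM in the anterior and 24.7, 26.9 and 33.5 CPM in the posterior libraries (log2 fold change 1.24, SE 0.18, adjusted p = 0.00649). The 3 posterior libraries were close to each other, and the value with the term was 1.04. Ntn4, a netrin of basement membranes, had 5.75, 6.46 and 5.87 CPM and 5.01, 4.83 and 3.90 CPM, with every posterior library below the anterior ones, but was not called (log2 fold change -0.40, SE 0.18, adjusted p = 0.223).

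Of the netrin receptors, Dcc, Unc5a and Unc5d rose. Dcc (ENSMUSG00000060534.17) had 10.1, 14.7 and 14.2 CPM in the anterior and 27.9, 45.2 and 56.5 CPM in the posterior libraries (log2 fold change 1.74, SE 0.27, adjusted p = 0.00916), and its value with the term was 1.10. Unc5a, a receptor for repulsion (ENSMUSG00000025876.16, chr13:54949411-55006018, plus strand), was low, with 3.03, 1.81 and 2.07 CPM in the anterior and 4.93, 6.99 and 5.27 CPM in the posterior libraries (log2 fold change 1.31, SE 0.27, adjusted p = 0.0277). Unc5d (ENSMUSG00000063626.7, chr8:28646717-29219636, minus strand) had 18.6, 17.6 and 21.2 CPM and 26.6, 49.2 and 63.4 CPM (log2 fold change 1.28, SE 0.29, adjusted p = 0.0403). None of these receptors overlapped between the regions. With the term Unc5a had a log2 fold change of 1.09 and Unc5d one of 0.48.

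Neo1 was the most abundant netrin receptor, at 36.7 CPM per kb against 2.72 CPM per kb for Dcc. Among the netrins it was Ntn1, at 12.5 CPM per kb. Neo1 had 243, 239 and 241 CPM in the anterior libraries, which lay close together, and 184, 341 and 378 CPM in the posterior ones (log2 fold change 0.32, SE 0.24, adjusted p = 0.419). Posterior replicate 1 was below and replicates 2 and 3 above every anterior library. Its value was therefore -0.39 with the term, from replicate 1 alone, and 0.58 from replicates 2 and 3 alone, where it was called. Unc5b, an endothelial receptor, had 73.1, 70.8 and 90.2 CPM and 39.1, 66.5 and 94.2 CPM (log2 fold change -0.23, SE 0.29, adjusted p = 0.628), and with the term it was -0.996. Unc5c was not called, with a log2 fold change of 0.16, which was 0.28 and called without posterior replicate 1 and -0.25 with the length correction.

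**Figure D3:**
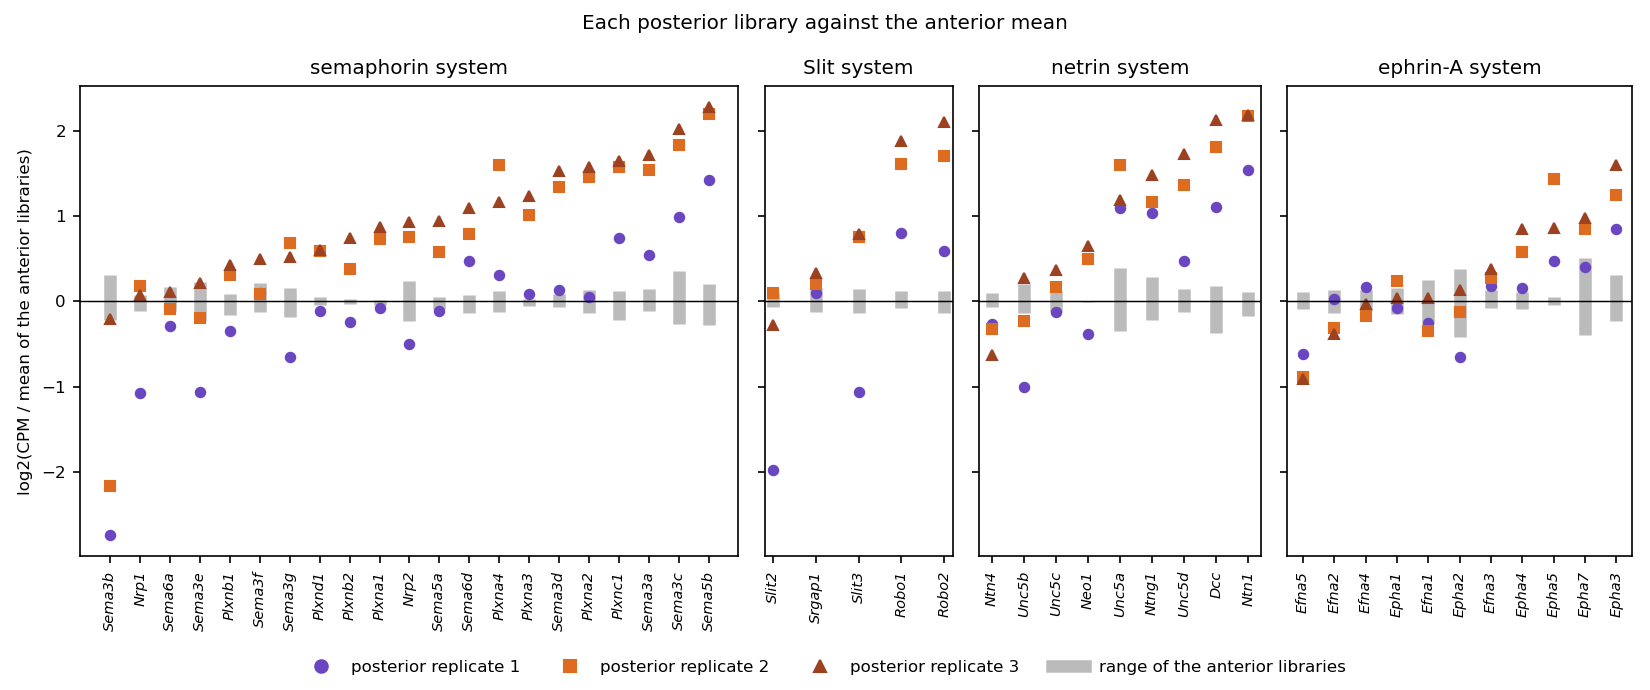
Log2 ratio of each posterior library to the mean of the anterior libraries (vertical axis) for the 46 genes tested, by system and ordered by replicate 3. Grey bars are the range of the anterior libraries. Replicate 1 is the lowest posterior library in 40 of the 46 genes and replicate 3 the highest in 35.

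In the ephrin-A system a ligand and a receptor moved in opposite directions. Efna5 (ENSMUSG00000048915.13, chr17:62604184-62881317, minus strand) had 148, 136 and 129 CPM in the anterior and 89.8, 74.8 and 73.5 CPM in the posterior libraries. The anterior mean was 138 ± 9.75 CPM (SD, n = 3), and that of the posterior libraries was 79.4 ± 9.05 CPM (SD, n = 3) (log2 fold change -0.80, SE 0.11, adjusted p = 0.00577). All posterior libraries were below all anterior ones, posterior replicate 1 included, and with the term the value was -0.62. Epha3, a receptor for Efna5 (ENSMUSG00000052504.8, chr16:63543534-63864175, minus strand), had 193, 208 and 280.0 CPM in the anterior and 407, 539 and 688 CPM in the posterior libraries (log2 fold change 1.26, SE 0.22, adjusted p = 0.0147). The regions did not overlap, and with the term the value was 0.84. Per length, Epha3 had the highest mean over all libraries of the 48 genes, at 68.1 CPM per kb. It led in the posterior palate with 96.2 CPM per kb against 73.9 CPM per kb for Plxnb2, while Plxnb2 led in the anterior palate with 58.0 against 40.1 CPM per kb.

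Another 3 EphA receptors had positive log2 fold changes of over 0.5 that missed the threshold. Epha4, which binds ephrins of both classes, had 106, 109.6 and 121 CPM in the anterior and 125, 168 and 201 CPM in the posterior libraries (log2 fold change 0.56, SE 0.17, adjusted p = 0.0980). Epha5 had 11.1, 11.6 and 10.9 CPM and 15.6, 30.4 and 20.3 CPM (log2 fold change 0.98, SE 0.24, adjusted p = 0.0503), just above the threshold. Both had every posterior library above every anterior one. Epha7 had 86.7, 92.6 and 162 CPM and 150.1, 205 and 224 CPM (log2 fold change 0.76, SE 0.26, adjusted p = 0.130). Its regions overlap at anterior replicate 3, which was above the other anterior libraries, and without that library it was called (log2 fold change 1.10, adjusted p = 0.0323). DESeq2 called all 3 receptors, and with the term their values were 0.16, 0.48 and 0.40. Without posterior replicate 1 all 3 were called, with values of 0.72, 1.18 and 0.92. Epha1 and Epha2, receptors of epithelial cells, had log2 fold changes of 0.072 and -0.17.

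The order of the ephrin-As per length differed by region. Efna5 was ahead of Efna2 in the anterior palate, at 34.2 against 29.8 CPM per kb, and behind it in the posterior palate, at 19.7 against 25.7 CPM per kb. Over all libraries Efna2 had the highest mean, at 27.8 CPM per kb. Efna2 had 57.9, 63.2 and 69.4 CPM in the anterior and 64.6, 51.0 and 48.7 CPM in the posterior libraries (log2 fold change -0.21, SE 0.13, adjusted p = 0.351). The other ephrin-As were not called. Efna1 and Efna4 had log2 fold changes of -0.17 and -0.0058. Efna3 had 0.28, with its posterior libraries all above the anterior ones. Without posterior replicate 1, Efna2 (-0.34) and Efna3 (0.33) were called.

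Summed per class and per length, the class 3 semaphorins, the Robos, the netrins and the EphA receptors were higher in every posterior library than in any anterior one. Robos summed to 26.1 to 26.9 CPM per kb in the anterior libraries and to 43.4, 83.1 and 104 CPM per kb in posterior replicates 1, 2 and 3. Netrins summed to 8.69 to 8.96 CPM per kb in the anterior and 20.4 to 29.9 CPM per kb in the posterior libraries. EphA receptors summed to 76.5 to 108 CPM per kb and to 125 to 202 CPM per kb. The ephrin-As were the 1 class whose posterior sums all lay below the anterior ones, with 114 to 125 CPM per kb in the anterior and 91.0 to 107 CPM per kb in the posterior libraries. The Slits summed to 18.9 to 20.3 CPM per kb in the anterior libraries and to 7.24, 27.3 and 25.3 CPM per kb in posterior replicates 1, 2 and 3. Class 3 semaphorins summed to 80.1 to 84.7 CPM per kb in the anterior libraries and to 91.4, 151 and 181 CPM per kb in the posterior ones. Plexins summed to 118 to 121 CPM per kb in the anterior libraries and to 108, 179 and 206 CPM per kb in the posterior ones. For plexins, neuropilins and netrin receptors posterior replicate 1 was below the anterior range and the other posterior libraries above it. Efna5 was the only ephrin-A with every posterior library below the anterior ones, and those of Efna3 were all above. The sums include genes called above, such as Sema3a, Epha3 and Efna5, so they give those calls no separate support. These sums were not tested.

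**Figure D4:**
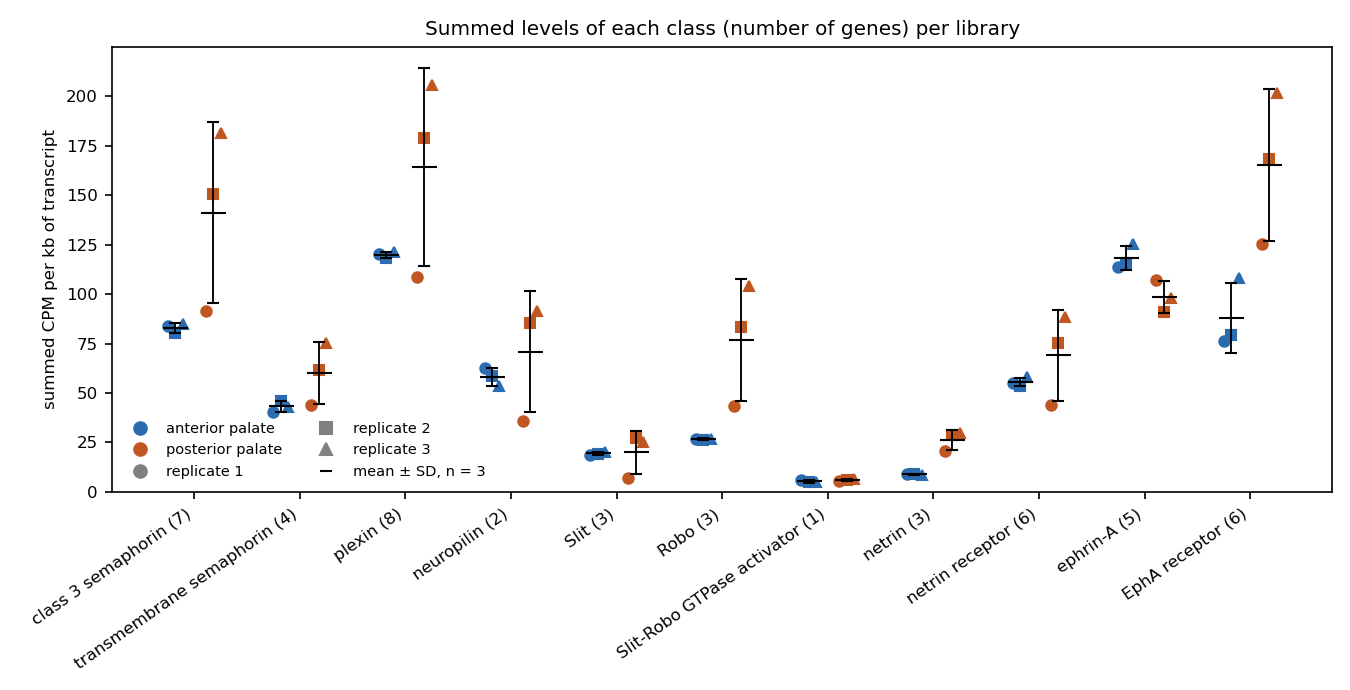
Summed levels of each class (vertical axis, CPM per kb of the longest coding transcript) in each library, with the number of genes in parentheses and the mean and SD of the 3 libraries of a region. Robos and netrins lie above the anterior sums in every posterior library, and Slits lie at 7.24 in posterior replicate 1 and at 27.3 and 25.3 in the others.

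The 3 posterior libraries did not carry the same difference. Posterior replicate 1 had the lowest level of the 3 in 40 of the 46 genes, and it was above the anterior range in 20, within it in 7 and below it in 19. Replicates 2 and 3 were each above the anterior range in 35 genes. In 13 genes replicate 1 was below all anterior libraries while both others were not, among them Plxnb2, Plxna1, Plxnd1, Nrp1, Nrp2, Slit3, Neo1 and Sema5a. The median log2 ratio to the anterior mean over the 46 genes was 0.068 in replicate 1, 0.64 in replicate 2 and 0.82 in replicate 3, while over all genes tested it was within 0.02 of 0 in each. Over the 13 genes called toward the posterior palate the medians were 0.84, 1.60 and 1.73, and in all 13 replicate 1 was above every anterior library.

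The calls changed with these libraries and with the tool. DESeq2 called 21 of the 46 genes, against 12.6% of all genes. With the library-group term, from posterior replicate 1 alone, the signs of 13 of the 46 genes turned and the median was 0.068. The 14 genes called had values of 0.48 to 1.54 for the 13 and -0.62 for Efna5, but replicate 1 was among the libraries that chose them, so their direction in it is no separate support. Without posterior replicate 1, 33 of the 46 genes were called, against 46.4% of all genes tested, and they included all 14. The group of libraries and the region cannot be told apart in that fit. Sema5b, Ntn1, Ntng1, Dcc and Efna5 were called under each of the 15 alternatives other than the library-group term, with log2 fold changes for Ntn1 from 1.76 to 2.18 and for Efna5 from -0.89 to -0.74.

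Leaving out 1 library other than posterior replicate 1 removed calls, with fewer samples behind each fit, and 3.23% to 4.15% of all genes were called in these fits. Plxnc1, Robo2, Sema3a, Sema6d and Unc5d lost their call without any one of the anterior replicates and without posterior replicate 2 or 3. Robo1 lost it without any anterior replicate or without posterior replicate 2. Sema3c lost it without anterior replicate 2 or 3 or posterior replicate 2. Unc5a lost it without anterior replicate 2 or 3 or posterior replicate 2 or 3, and Epha3 without anterior replicate 1 or 2 or posterior replicate 2. Their log2 fold changes stayed positive in each of these fits.

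**Figure D5:**
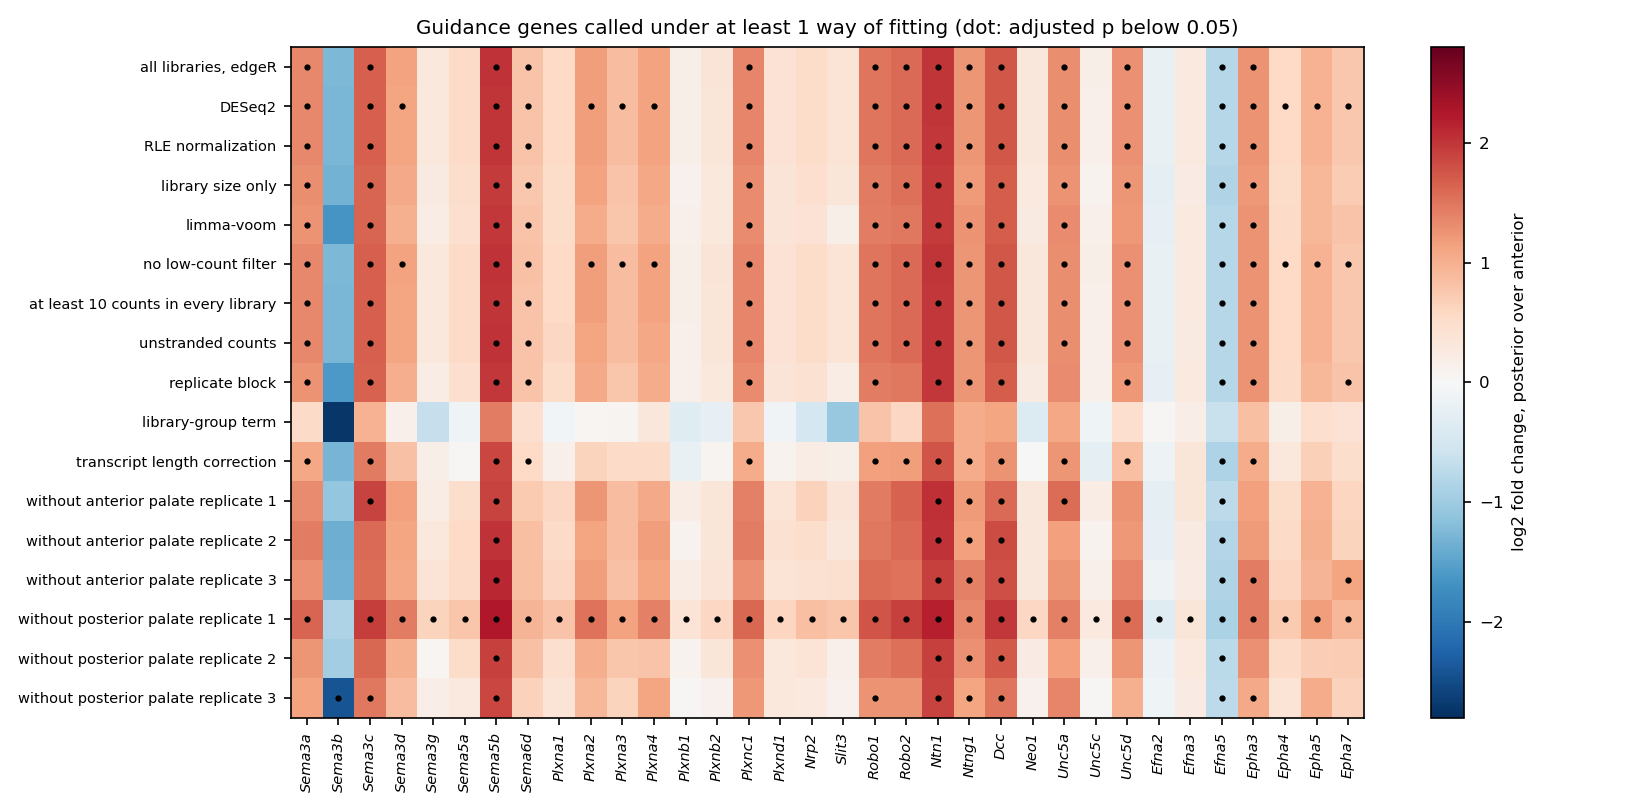
Log2 fold change (colour, red for posterior and blue for anterior) of each guidance gene called under at least 1 way of fitting, with a dot where the adjusted p was below 0.05. The fit with the library-group term, which has 1 posterior library, is drawn without dots. Dots for Sema5b, Ntn1, Ntng1, Dcc and Efna5 run through all other rows, and those added without posterior replicate 1 fill much of that row.

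Neighbouring genes gave a comparison within each library. Of these genes, 6 pairs that follow each other along 1 chromosome have at most 1 Mb between them. Efna1 and Efna4, with Efna3 between them, also lie within 1 Mb but were not compared. The log2 ratio of the CPM of each of the 6 pairs was compared between regions by an exact two-sided permutation test. Its smallest p with 3 against 3 libraries is 0.1. The pairs were looked at after the values of the genes were known. Robo1 and Robo2, 846 kb apart on chromosome 16, had mean log2 ratios of 0.29 in the anterior and 0.26 in the posterior libraries (p = 0.7, adjusted p = 0.7 over the 6 pairs compared, exact permutation test). On chromosome 5, Sema3a lies 423 kb from Sema3e, and their log2 ratio was 1.40, 2.05 and 1.61 in the anterior and 3.28, 3.41 and 3.17 in the posterior libraries. That difference of 1.60 had the smallest p the test can give (p = 0.1, adjusted p = 0.2, exact permutation test). The ratio of Sema3d to Sema3a, which are 536 kb apart, differed by -0.26, posterior minus anterior (p = 0.1, adjusted p = 0.2, exact permutation test). On chromosome 9, the ratio of Sema3b to Sema3f, 72.3 kb apart, was lower by 1.92 on the log2 scale in the posterior libraries, with the same p. The pairs Efna1 with Efna3 and Efna3 with Efna4 on chromosome 3 gave p = 0.2 each (adjusted p = 0.24, exact permutation test).

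Of 49 other guidance genes, 47 were tested and 8 were called, or 17.0% against 7.46% of all genes. Of these, 5 were toward the posterior palate, against 4.87% of all genes, and 3 toward the anterior palate, against 2.59%. The 47 genes had a median log2 fold change of 0.068. Flrt2, a transmembrane ligand for Unc5 receptors, had 112, 91.1 and 139 CPM in the anterior and 380.2, 462 and 496 CPM in the posterior libraries (log2 fold change 1.97, SE 0.18, adjusted p = 0.000934). Its relative Flrt3 had 57.2, 52.6 and 63.9 CPM and 94.9, 127 and 118 CPM (log2 fold change 0.97, SE 0.14, adjusted p = 0.00561). Srgap3, a GTPase activator of the Slit-Robo family, had 27.3, 23.1 and 23.3 CPM and 44.1, 58.0 and 52.1 CPM (log2 fold change 1.06, SE 0.13, adjusted p = 0.00389). In all 3 genes every posterior library, replicate 1 included, was well above the anterior ones. Sema6b rose by 0.80 on the log2 scale (adjusted p = 0.0249). Epha6 was near the limit of detection, at 0.290 to 0.432 CPM in the anterior and 0.896 to 1.37 CPM in the posterior libraries (log2 fold change 1.68, SE 0.36, adjusted p = 0.0317). It had 4 to 5 counts in each anterior library and passed the filter through its 12 to 19 counts in the posterior ones, so that its call gives no independent support to the count. The 3 genes that fell were the class 4 semaphorins Sema4d (log2 fold change -0.78, SE 0.17, adjusted p = 0.0322) and Sema4f (log2 fold change -1.04, SE 0.22, adjusted p = 0.0322), and Mical2 (log2 fold change -0.91, SE 0.16, adjusted p = 0.0155), of the Mical family of flavin enzymes that act on actin downstream of plexins. Dscam and Epha10 were below the filter.

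Markers of other cell types moved with the regions too, and their part in these results was not tested. For each list, the shares of all genes called to compare with were 4.87% toward the posterior and 2.59% toward the anterior palate. All 10 skeletal muscle markers were called toward the posterior palate. Their summed level was 10.4 to 13.6 CPM in the anterior and 591 to 1004 CPM in the posterior libraries. Myf5, Myod1, Chrna1 and Smyd1 were nearly absent from the anterior palate, at 0 to 6 counts, and met the filter through posterior libraries alone. The calls of these genes were thus tied to the filter and give the count of 10 no independent support. The 8 neuronal markers summed to 40.8 to 48.8 CPM in the anterior libraries and to 75.3, 320.2 and 48.7 CPM in posterior replicates 1, 2 and 3, and 2 of the 7 tested, Nefl and Nefm, were called toward the posterior palate. Posterior replicate 2 was the highest posterior library for 7 of the 46 guidance genes, namely Sema3g, Plxna4, Nrp1, Slit2, Unc5a, Epha1 and Epha5. Without it, the log2 fold change of Unc5a was 1.14, that of Epha5 0.68 and that of Dcc 1.71. In that fit 3.25% of all genes were called, Dcc among them. Unc5a was not called in it, nor was it without anterior replicate 2 or 3 or posterior replicate 3. Epha5 was not called with all libraries or in that fit. The 10 endothelial markers had no call, and summed to 502 to 522 CPM in the anterior and to 437, 640 and 688 CPM in the posterior libraries. Of 10 epithelial markers 1 was called, toward the anterior palate, and their sum was 1699 to 1803 CPM in the anterior and 1183 to 1921 CPM in the posterior libraries. Of 5 chondrocyte markers tested 3 were called toward the posterior palate, and the 6 on the list summed to 149 to 191 CPM in the anterior and 547 to 707 CPM in the posterior libraries. Of 6 glial markers 1 was called toward the posterior palate, and their sum was 54.0 to 60.7 CPM in the anterior and 60.6, 86.4 and 75.3 CPM in the posterior libraries. Osteoblast markers summed to 1986 to 3587 CPM in the anterior and to 295, 510 and 1846 CPM in the posterior libraries, with no call, and Bglap had at most 3 counts in each library. The 3 dental mesenchyme markers had no call and summed to 73.1 to 313 CPM in the anterior and 99.5 to 129 CPM in the posterior libraries. The 5 mesenchyme markers, the defining genes of the shelf tissue, were detected in every library and summed to 1577 to 1689 CPM in the anterior and 1274 to 1651 CPM in the posterior libraries, and among them Prrx1 was called toward the anterior and Twist1 and Pdgfra toward the posterior palate.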

How the data were processed

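RNA-seq of 3 anterior and 3 posterior palate samples was used, grouped by the region in their labels. The authors deposited raw read counts per Ensembl gene for each library, unstranded and for each strand, in the layout that STAR writes. The study's methods name HISAT2 with mm10, StringTie and DESeq2 1.30.1, and the annotation behind the counts is not given in the sources used here. The reverse-stranded counts were used, since they were at least 18.95 times those of the other strand. Symbols, positions and transcript lengths came from GENCODE M21 with identifier versions ignored, since only 35 identifiers had the same version there. Upstream bases came from RefSeq.

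Counts were normalized by TMM and tested with edgeR 4.0.16 in R 4.3.3, on genes that reached 10 counts in 3 or more libraries. Full values were given for the genes called, for those called under another fit with a log2 fold change of at least 0.5 in size, and for the most abundant ligand and receptor of each system. A limit of 3 counts corresponded to 0.205 to 0.259 CPM. Alternatives were DESeq2 1.42.0, RLE, library size only, limma-voom (limma 3.58.1), other filters, unstranded counts, a replicate block, a library-group term, a length correction (lowess, span 0.3) and leaving out each library. Replicates differed by more than counting noise. The chi-square per gene was 3.48 to 6.82 between anterior libraries and 9.52 between posterior replicates 2 and 3. Between posterior replicate 1 and posterior replicates 2 and 3 it was 54.0 and 69.0. The genes, lists and alternatives were chosen with earlier results of these data known. Single-cell data were not analysed here.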

Additional observations from a re-analysis of the deposited data

How the results depend on the processing

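Of the 46 genes, all kept their direction with DESeq2, RLE normalization, library size only, limma-voom, unstranded counts, both filters and the replicate block. With limma-voom Unc5d lost its call. DESeq2 and the fit with no low-count filter each called 21 genes, 20 of them toward the posterior palate, and 15 other guidance genes against 8, while 12.6% and 7.14% of all genes were called. The replicate numbers did not pair the samples (correlations of same-numbered libraries -0.049, 0.059 and 0.037), and with the replicate block 13 genes of the 46 and 5 other guidance genes were called, with Robo2 and Unc5a lost and Epha7 gained, and 5.29% of all genes. With the transcript length correction 13 other guidance genes were called, and the signs turned for Plxnb1 (-0.21), Srgap1 (-0.088), Neo1 (-0.018), Unc5c (-0.25) and Efna4 (0.12). With the library-group term the regional difference is left to posterior replicate 1, whose spread is assumed to be that of the other libraries. The 7 genes with an adjusted p under the threshold toward the anterior palate in it, Efna5 among them, give the level of that library. The signs turned for Sema3g (-0.64), Sema5a (-0.11), Plxna1 (-0.071), Plxnb1 (-0.34), Plxnb2 (-0.24), Plxnd1 (-0.11), Nrp2 (-0.50), Slit3 (-1.06), Neo1 (-0.39), Unc5c (-0.12), Efna2 (0.026), Efna4 (0.17) and Epha1 (-0.079).

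Leaving out 1 library gave 5 to 33 genes called, with 1 to 2 toward the anterior and 4 to 31 toward the posterior palate, and 3 to 21 other guidance genes, while 3.23% to 46.4% of all genes were called. The highest of these counts came without posterior replicate 1, apart from the anterior count, which also rose to 2 without posterior replicate 3. Log2 fold changes ranged across 0 for Sema3e (-0.56 to 0.034), Sema6a (-0.18 to 0.019), Nrp1 (-0.38 to 0.13), Unc5b (-0.56 to 0.050), Efna4 (-0.093 to 0.074), Epha1 (-0.015 to 0.15) and Epha2 (-0.35 to 0.057). The median of all genes moved by less than 0.1 under each scaling. Low counts limit what can be said of Slit1, Robo3 and Epha6. The cause of these changes was not tested.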

Other observations

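Collapsin response mediators, cytoplasmic proteins that act downstream of semaphorins in neurons, were not called. Posterior replicate 2 was the highest posterior library in 4 of the 5, all but Dpysl2. Crmp1 had 16.1, 19.4 and 18.3 CPM in the anterior and 19.8, 61.2 and 11.6 CPM in the posterior libraries. Posterior replicate 2, the library with the highest sum of neuronal markers, was the high one. Dpysl5 had 16.7, 17.4 and 20.7 CPM in the anterior and 29.9, 50.4 and 23.3 CPM in the posterior libraries, again with posterior replicate 2 highest, and an adjusted p = 0.0938 by edgeR. Dpysl3 had 239, 243 and 236 CPM in the anterior and 256, 296 and 155 CPM in the posterior libraries, and Dpysl4 had 14.5, 14.1 and 17.1 CPM and 15.9, 22.1 and 17.9 CPM. Dpysl2 had 156, 169.8 and 147 CPM in the anterior and 130.0, 72.9 and 62.1 CPM in the posterior libraries (adjusted p = 0.103 by edgeR). Its posterior libraries were all below the anterior ones, and replicate 1 was the nearest to them. These genes were singled out after their values were seen.

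The class 4 semaphorins, transmembrane ligands that bind class B plexins, also differed among themselves. Sema4d and Sema4f were called toward the anterior palate. Sema4a and Sema4b had log2 fold changes of -0.57 and -0.29 and were not called by edgeR (adjusted p = 0.0648 and 0.157), while Sema4c and Sema4g had log2 fold changes of 0.38 and 0.23 and were not called either.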
